A study of Homo sapiens with 2 samples.

Results

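Chemokines are small secreted proteins that guide the migration of leukocytes and other cells by binding to receptors that span the membrane and couple to G proteins. They are grouped by the spacing of their conserved cysteines into CXC, CC, CX3C and XC families. CXC members with a glutamate-leucine-arginine triplet before the cysteines attract neutrophils and promote blood vessel growth through the receptors CXCR1 and CXCR2. In glioma, chemokines of the tumour cells are known for recruiting myeloid cells.

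The chemokine genes were taken as all probe sets annotated with a single gene symbol that names a CCL, CXCL, CX3CL or XCL chemokine, CXCL8 (formerly IL8) or PF4. This gave 54 of 54675 probe sets, which stand for 37 of 19775 genes. Of these 37 genes, 25 had 1 probe set and 12 had several. A further 4 probe sets carried several symbols, at least one of them a chemokine, and named no gene. For CCL3, CCL13, CCL14, CCL15 and XCL2 no probe set named that gene alone, and they were not analysed as genes. The probe sets with several symbols are given at the end.

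The values come from 2 samples labelled as U87, an established human glioblastoma line. One was labelled as transfected with siRNA to FOXM1, a forkhead factor that drives genes of the division cycle, and the other with a non-target control siRNA; their arrays are called the FOXM1-labelled and the control-labelled array. Both were harvested at 48 hours and hybridised to 1 array each, so that no replicate error and no test between the conditions could be had. The comparison asks which transcripts respond to transient knockdown of FOXM1. The deposited values are linear signal intensities, and a log2 difference below is that of the FOXM1-labelled minus that of the control-labelled array. The only spread within the arrays is that between probe sets of the same gene, with an SD of 0.46 per probe set on the log2 scale over 5476 genes.

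The labels were checked first. FOXM1 read 1343 on the FOXM1-labelled array and 1520 on the control-labelled array, a log2 difference of -0.18 that is smaller than the probe set SD. That value rests on 1 probe set, whose name ends in _x_at, a kind that can share probes with other transcripts. With no other probe set for FOXM1, the size of the knockdown could not be checked further. The 9p21 gene CDKN2A, which U87 cells are known to have lost, read 421 on the FOXM1-labelled array and 3467 on the control-labelled array. CDKN2A was also read by an _x_at probe set. Its log2 difference was -3.04, and -4.35 without probe sets ending in _x_at or _s_at. Its neighbours MTAP and CDKN2B read 76.3 and 31.8 on the FOXM1-labelled array, below the floor defined in the next paragraph, and 619 and 350 on the control-labelled array. An effect of the siRNA and a difference between the cells on the 2 arrays cannot be told apart in any result given here. ACTB and GAPDH are control transcripts probed at both ends. For ACTB the ratio of 3' to 5' signal was 4.21 on the FOXM1-labelled array and 6.79 on the other, and for GAPDH 1.09 and 1.26. The part of RNA quality in the results was not tested. Among markers of other cell types, 2 of 7 measured leukocyte and microglia genes lay above the floor on the FOXM1-labelled array and 1 of 7 on the other, with summed signals of 343 and 281. The pan-leukocyte gene PTPRC was below the floor on both arrays, at 11.7 on the FOXM1-labelled array and 30.5 on the control-labelled array. Of 5 endothelial markers, 3 lay above the floor on the FOXM1-labelled array and 1 on the other, with summed signals of 451 and 102, and KDR was at least 2.41-fold higher, though under 2-fold (0.92 on the log2 scale) with a floor common to both arrays. Of 5 epithelial markers, 3 lay above the floor on each array, with summed signals of 768 on the FOXM1-labelled and 3055 on the control-labelled array. Among them the keratin gene KRT18, read by 1 probe set ending in _x_at, was 6.99-fold lower. KRT18 read 380 on the FOXM1-labelled array and 2655 on the control-labelled array. It held most of the summed signal on the control-labelled array, so the sums do not stand for the whole list. CDH1 was at least 1.45-fold lower, whereas EPCAM was at least 1.62-fold higher, at 98.8 on the FOXM1-labelled array and 48.1 on the other. KRT8 differed by 0.27 on the log2 scale, less than the probe set SD, and KRT19 was below both floors. Of 8 glioma and astrocyte markers, VIM, CD44, OLIG2 and SLC1A3 lay above the floor on both arrays, while GFAP and AQP4 lay below it on both. S100B read 2.21 on the FOXM1-labelled array, below the floor, and 87.8 on the control-labelled array, at least 1.13-fold lower. Of 4 platelet and megakaryocyte markers, 0 lay above the floor on the FOXM1-labelled array and 1 on the other, with summed signals of 126 and 137. In the glioma list CD44 was 13.2-fold and NES at least 4.29-fold higher on the FOXM1-labelled array. The part of these markers in the chemokine values was not tested.

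Signal without transcript was estimated from 135 probe sets for olfactory receptor genes, which are silent in most tissues outside the olfactory epithelium. Their 90th percentile was 77.7 on the FOXM1-labelled array and 60.8 on the control-labelled array, and these values served as the floor of each array. By this definition 14 of the 135 olfactory receptor probe sets lay above the floor on each array. Of the 54 chemokine probe sets, 17 (31.5%) lay above it on the FOXM1-labelled array and 5 (9.26%) on the control-labelled array. Among all probe sets of the arrays the shares were 50.5% and 53.2%. On the control-labelled array the share of chemokine probe sets was thus near the share that the definition of the floor gives for olfactory receptors.

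Of the 37 genes, each represented by its brightest probe set (by mean log2 signal), 14 exceeded the floor of 1 array or both. CXCL2, CXCL3 and CXCL8 were above it on both. A further 10 genes passed only on the FOXM1-labelled array, and XCL1 passed only on the control-labelled array. For a gene above the floor on 1 array the fold is a bound against the floor of the dimmer array, written as "at least". Against a threshold of 2-fold, 9 of the 37 genes were higher on the FOXM1-labelled array and 0 were lower. Among all 13865 genes detected on 1 array or both, 16.0% passed 2-fold as higher and 15.4% as lower, and over all 19775 genes, detected or not, 11.2% were higher. Since 6 of the 9 genes passed the floor only on the array where they were bright, their count in one direction follows in part from how they were detected. The 3 chemokine genes above both floors were all at least 2-fold higher, against 15.3% of the 11395 genes above both floors. A difference of at least 8-fold was reached by 5 chemokine genes, CCL20, CXCL2, CXCL1, CXCL3 and CCL2, and by 2.73% of all detected genes. By the same rule, 2 of the 135 olfactory receptor probe sets were at least 2-fold higher. With no replicate array, none of these counts has a test.

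**Figure D1:**
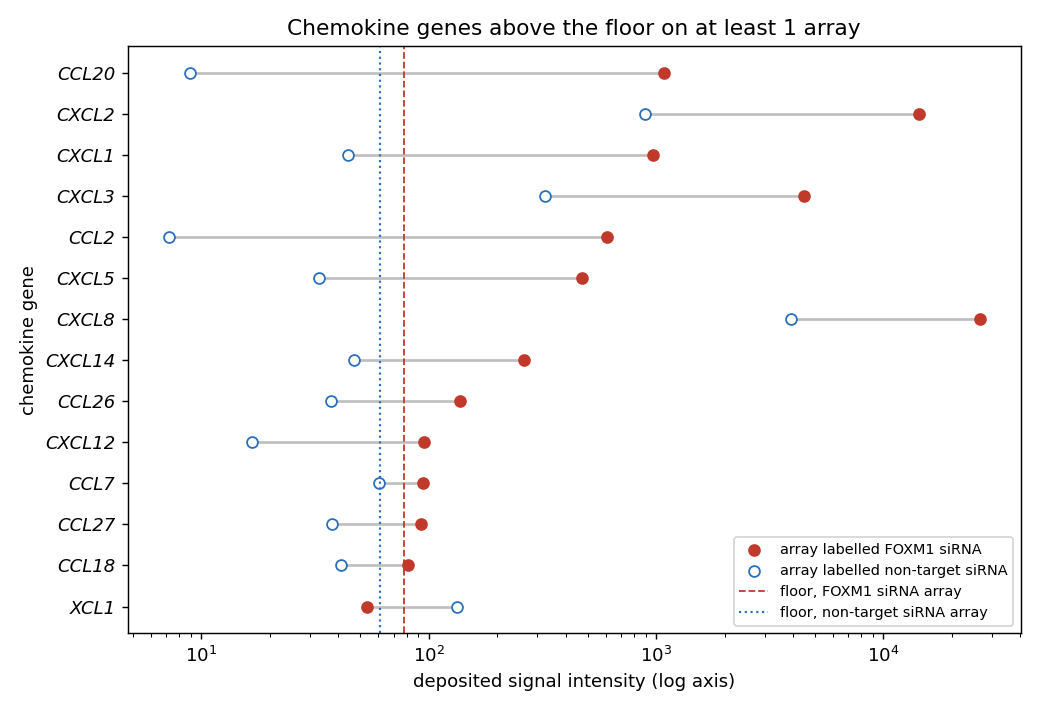
Deposited signal intensity (log axis) of the 14 chemokine genes above the floor on at least 1 array, with filled points for the FOXM1-labelled array and open points for the control-labelled array; dashed and dotted lines are the floors at 77.7 and 60.8. The open points of CXCL2, CXCL3, CXCL8 and XCL1 lie above the floor of their array, and the other 10 lie below it.

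Of the 9 higher genes, 5 encode neutrophil-attracting CXC chemokines. CXCL8, CXCL1, CXCL2, CXCL3 and CXCL5 were each at least 2-fold higher on the FOXM1-labelled array, and CXCL6 was below the floor on both arrays. These 6 genes lie in one block of chromosome 4. Their promoters, taken from RefSeq (GRCh38.p14), are shown because all 6 hold the same motif, although only 5 of them gave a signal above the floor. Each window covers the 150 bases before the annotated start, and capitals mark a match to GGAATTTCC, a site that NF-kB dimers are known to bind. CCL20, which among the 37 genes is the CC chemokine gene with the brightest signal on the FOXM1-labelled array, is shown beside them. Capitals mark its match to the NF-kB consensus on the opposite strand.
CXCL8, chr4:73740419-73740568, plus strand: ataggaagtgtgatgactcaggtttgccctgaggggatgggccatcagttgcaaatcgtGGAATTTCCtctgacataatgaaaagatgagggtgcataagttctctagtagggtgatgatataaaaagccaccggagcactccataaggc
CXCL6, chr4:73836528-73836677, plus strand: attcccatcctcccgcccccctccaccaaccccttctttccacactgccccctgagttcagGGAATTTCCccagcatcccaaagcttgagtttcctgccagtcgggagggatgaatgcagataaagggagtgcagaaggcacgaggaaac
CXCL1, chr4:73869243-73869392, plus strand: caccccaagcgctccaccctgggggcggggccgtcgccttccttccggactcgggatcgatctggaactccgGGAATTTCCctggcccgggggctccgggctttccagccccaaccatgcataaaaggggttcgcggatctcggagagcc
CXCL5, chr4:73998678-73998827, minus strand: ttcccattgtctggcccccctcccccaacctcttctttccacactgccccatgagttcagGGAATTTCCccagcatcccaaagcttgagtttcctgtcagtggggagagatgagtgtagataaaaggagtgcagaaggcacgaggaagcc
CXCL3, chr4:74038690-74038839, minus strand: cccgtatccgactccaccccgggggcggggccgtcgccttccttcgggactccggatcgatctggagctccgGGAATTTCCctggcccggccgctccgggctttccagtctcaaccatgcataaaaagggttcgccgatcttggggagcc
CXCL2, chr4:74099196-74099345, minus strand: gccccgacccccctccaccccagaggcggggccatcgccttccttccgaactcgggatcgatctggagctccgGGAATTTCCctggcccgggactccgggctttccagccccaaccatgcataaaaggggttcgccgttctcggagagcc
CCL20, chr2:227813692-227813841, plus strand: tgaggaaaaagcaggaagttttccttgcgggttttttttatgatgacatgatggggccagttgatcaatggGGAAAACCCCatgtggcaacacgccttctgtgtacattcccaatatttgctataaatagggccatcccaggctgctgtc

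CXCL8 encodes interleukin 8, the ligand of CXCR1 and CXCR2. Its brighter probe set, 202859_x_at, read 26583 on the FOXM1-labelled array and 3918 on the control-labelled array, a 6.79-fold difference (log2 2.76). The other probe set, 211506_s_at, read 13431 on the FOXM1-labelled array and 962 on the control-labelled array, a log2 difference of 3.80. Both probe sets lay above both floors and went the same way. CXCL8 was also the only chemokine gene above the highest olfactory receptor signal on the control-labelled array, which was 1726.

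CXCL1, CXCL2 and CXCL3 are near copies of each other and encode the GRO chemokines, ligands of CXCR2. CXCL2 read 14339 on the FOXM1-labelled array and 890 on the control-labelled array in probe set 209774_x_at, a 16.1-fold difference. Its 2 other probe sets were below both floors, at 27.8 and 15.6 on the FOXM1-labelled array and 7.44 and 1.95 on the control-labelled array. The CXCL2 value therefore rests on 1 probe set of a kind that can share probes with other transcripts, and the median of its 3 probe sets, set to the floors, gave a log2 difference of only 0.35, which is the ratio of the floors. CXCL3 read 4494 on the FOXM1-labelled array and 325 on the control-labelled array, a 13.8-fold difference in its single probe set, 207850_at. CXCL1 read 966 on the FOXM1-labelled array and 43.9, below the floor, on the control-labelled array, so that it was at least 15.9-fold higher in its single probe set, 204470_at. How far signal from one of these 3 transcripts adds to the probe sets of the others was not tested.

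CXCL5 and CXCL6 form a second pair of related genes, of which CXCL5 signals through CXCR2 and CXCL6 through both neutrophil receptors. CXCL5 read 470 on the FOXM1-labelled array and 32.8 on the control-labelled array in its brightest probe set, 214974_x_at, at least 7.73-fold higher. A second probe set, 215101_s_at, read 137 on the FOXM1-labelled array and 3.07 on the other, and the third, 207852_at, was below both floors at 38.0 and 4.24. The median of the 3 probe sets of CXCL5 was 1.17 on the log2 scale, still above 2-fold. CXCL6 read 21.9 on the FOXM1-labelled array and 16.9 on the control-labelled array, below the floor on both. The pair thus differed in whether a signal above the floor was found at all.

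On chromosome 4 these genes stand in one block of 9 protein-coding genes, all of them chemokine genes, in the order CXCL8, CXCL6, PF4V1, CXCL1, PF4, PPBP, CXCL5, CXCL3 and CXCL2 (gene order of GRCh38.p14). All 9 had a probe set, and the 5 above a floor were the 5 neutrophil-attracting genes named as higher. PF4, the platelet chemokine CXCL4, read 54.1 on the FOXM1-labelled array and 10.4 on the control-labelled array. PF4V1 and PPBP, platelet chemokine genes that the choice of symbols did not include, read 20.0 and 29.7 on the FOXM1-labelled array and 0.595 and 0.597 on the control-labelled array. The genes below the floor thus lie between those above it. Next to CXCL2 outside the block, the mitochondrial folate enzyme gene MTHFD2L read 1363 on the FOXM1-labelled array and 1421 on the control-labelled array, a log2 difference of -0.06. RASSF6, next to CXCL8 on the opposite side, read 11.0 on the FOXM1-labelled array, below the floor, and 65.6 on the control-labelled array.

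**Figure D2:**
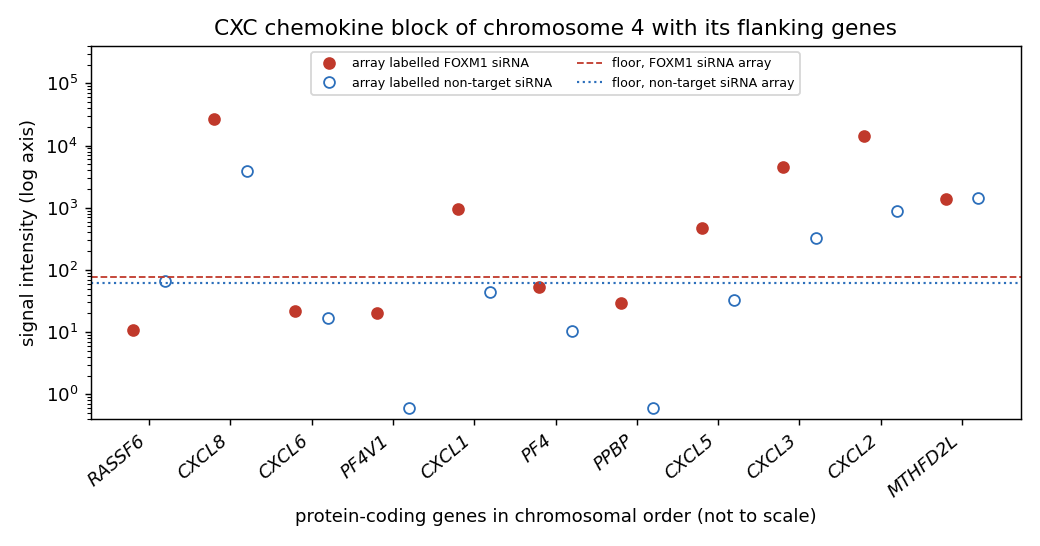
Signal intensity (log axis) of the 9 protein-coding genes of the chromosome 4 block and the gene on either side, in chromosomal order and not to scale, with filled points for the FOXM1-labelled array, open points for the control-labelled array, and lines for the floors at 77.7 and 60.8. CXCL8, CXCL1, CXCL5, CXCL3 and CXCL2 stand above the floor on the FOXM1-labelled array, whereas CXCL6, PF4V1, PF4 and PPBP between them stay below it on both arrays.

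The promoters of this group shared sequence that the choice of genes had not used. The motifs, however, were set with earlier results of these arrays known. Some of the promoters are near copies of each other, as given in the next paragraph, so the counts below are not of independent genes. A match was searched on both strands from 250 bases before to 50 bases after the start. RefSeq promoters were found for 26 of the 37 chemokine genes, and CCL2, CCL4, CCL5, CCL11, CCL16, CCL17, CCL21, CX3CL1, CXCL16, PF4 and XCL1 had no entry. GGAATTTCC occurred in the promoters of CXCL1, CXCL2, CXCL3, CXCL5, CXCL6, CXCL8, CXCL10 and CXCL11, that is 8 of 26 genes, against 0.560% of all 27305 genes with a promoter of the same length in the table. Of the 8 genes at least 2-fold higher with a promoter entry, 5 held it. The other 3 holders, CXCL6, CXCL10 and CXCL11, were below the floor on both arrays, so the motif did not separate genes above the floor from those below. The match began 78 bases before the start in CXCL1 and CXCL3, 77 in CXCL2, 89 in CXCL6, 90 in CXCL5 and 91 in CXCL8. The longer NF-kB consensus occurred in 10 of the 26 and in 13.3% of all genes. It overlapped GGAATTTCC in 7 of its 10 holders, and the remaining ones were CCL1, CCL20 and CCL22. In CCL20 its match began 79 bases before the start. The AP-1 motif TGANTCA occurred in 7 of 26 against 9.37% of all genes. Its holders were CXCL8, CXCL14, CCL7 and CCL27, and CCL24, CXCL11 and CXCL17, which were below both floors. The interferon response motif, GAAA and GAAA spaced by any 2 bases, was found in CXCL9 and CXCL10 only of the 26, against 4.38% of all genes. TATAAA was found in 10 of the 26 and in 14.0% of all genes, beginning 31 bases before the start of CXCL8 and 29 before that of CCL20. These matches are descriptions of letters, and no binding was measured.

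Promoters were set side by side without gaps over 89 bases centred on GGAATTTCC. That of CXCL1 was 92.1% identical to that of CXCL3 and 75.3% to that of CXCL2. Without gaps, a base missing from a sequence, as shortly after GGAATTTCC in CXCL2 against CXCL1, shifts all later bases and lowers the identity. The promoters of CXCL5 and CXCL6 were 93.3% identical over the same length, although only CXCL5 gave a signal above the floor. The promoter of CXCL8 was 24.7% to 34.8% identical to the other 5. The related promoters in this block thus fell into the CXCL1, CXCL2 and CXCL3 group, the CXCL5 and CXCL6 pair, and CXCL8 alone.

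The interferon-inducible CXC genes, whose products bind CXCR3 on T cells, gave no signal above the floor. CXCL9 read 18.9 on the FOXM1-labelled array and 21.8 on the control-labelled array. CXCL10 read 35.0 on the FOXM1-labelled array and 8.19 on the control-labelled array, and CXCL11 read 15.0 and 1.49 in its brighter probe set. For CXCL11 the other probe set went the opposite way, at 1.19 on the FOXM1-labelled array and 15.1 on the control-labelled array. Unfloored log2 differences of olfactory receptor probe sets ran from -2.27 to 3.69 between their 5th and 95th percentiles, a range that holds the differences of CXCL9, CXCL10 and the brighter CXCL11 probe set. The dimmer CXCL11 probe set, at -3.67, lay below it.

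Among the CC chemokines, CCL20 and CCL2 had the largest bounds. CCL20, the ligand of CCR6, which attracts dendritic cells and lymphocytes, read 1086 on the FOXM1-labelled array and 8.93 on the control-labelled array. It was at least 17.9-fold higher. CCL2, the monocyte attractant MCP-1 and ligand of CCR2, read 609 on the FOXM1-labelled array and 7.18 on the control-labelled array, at least 10.0-fold higher in its single probe set, 216598_s_at. CCL26, an eotaxin and ligand of CCR3, read 138 on the FOXM1-labelled array and 37.1 on the control-labelled array, at least 2.26-fold higher. Unfloored, its log2 difference was 1.89, within the olfactory receptor range given above. Unlike CCL20 and CCL2, CCL26 was past 2-fold by a small margin. It was not with the 95th percentile of the olfactory receptor signals as the floor, with a common floor, or with the arrays scaled to equal hybridisation controls, and with both floors doubled it was not detected.

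The remaining CC genes lay close to the floor or under it. CCL7, a further monocyte attractant, read 94.4 on the FOXM1-labelled array and 60.2 on the control-labelled array, at least 1.55-fold higher. The skin chemokine gene CCL27 read 92.7 on the FOXM1-labelled array and 37.4 on the control-labelled array, at least 1.52-fold higher. CCL18, a product of macrophages, read 81.1 on the FOXM1-labelled array and 40.9 on the control-labelled array, at least 1.33-fold higher, and 117 and 5.24 in its other probe set. These bounds are under 2-fold, because the signals on the FOXM1-labelled array were themselves close to the floor. Of 13 measured inflammatory CC genes, 5 were detected and 3 were at least 2-fold higher, and of 7 homeostatic CC genes, which direct the steady traffic of lymphocytes, only CCL27 was detected. CCL5, the T cell attractant RANTES, was below the floor in all 3 of its probe sets, with signals of 48.3, 44.7 and 6.63 on the FOXM1-labelled array and 2.68, 12.9 and 17.8 on the control-labelled array. CCL4, a macrophage inflammatory protein gene, read 23.0 on the FOXM1-labelled array and 13.6 on the control-labelled array.

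Of the other CXC, CX3C and XC genes, CXCL14 was the only one past 2-fold. CXCL14, a chemokine of epithelia and stroma, read 261 on the FOXM1-labelled array and 47.1 on the control-labelled array in probe set 218002_s_at, at least 4.30-fold higher. Its second probe set, 222484_s_at, read 215 on the FOXM1-labelled array and 10.0 on the control-labelled array, and the third was below both floors. Unfloored, 218002_s_at differed by 2.47 on the log2 scale, within the olfactory receptor range of -2.27 to 3.69. The second probe set differed by 4.42, above that range. By raw signal the probe sets of CXCL12, the ligand of CXCR4 and ACKR3, went opposite ways, but only 203666_at passed a floor. One, 203666_at, read 95.1 on the FOXM1-labelled array and 16.7 on the control-labelled array, at least 1.56-fold higher, and the other, 209687_at, read 2.72 on the FOXM1-labelled array and 60.3, just under the floor, on the control-labelled array. XCL1, lymphotactin, was the only detected gene with the lower signal on the FOXM1-labelled array, at 53.3, against 133 on the control-labelled array, at least 1.71-fold lower. With the doubled floor no direction could be given for XCL1, since the bound was then 0.23 on the log2 scale. Its other probe set was below both floors at 35.9 and 47.8. The membrane-bound chemokines CX3CL1 and CXCL16 stayed below both floors, CX3CL1 at 59.2 on the FOXM1-labelled array and 42.6 on the control-labelled array, and CXCL16 at 12.2 and 8.16.

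In all, 23 of the 37 chemokine genes were below both floors. Their signals ran from 2.73 to 62.4 with a median of 21.9 on the FOXM1-labelled array, and from 1.49 to 51.6 with a median of 13.0 on the control-labelled array. The olfactory receptor probe sets had medians of 21.2 and 12.2 on the same arrays. Unfloored, the log2 differences of these 23 genes had a median of 0.58, and that of the olfactory receptor probe sets was 0.61. By their brightest probe sets, none of the 23 exceeded the 95th percentile of the olfactory receptor differences, and 1 lay below the 5th, the lymph node chemokine gene CCL21 at -2.89. Of their dimmer probe sets, 1555759_a_at of CCL5, at 4.17, and 211122_s_at of CXCL11, at -3.67, lay outside that range. Besides the genes named above, the group held CCL1, CCL8, CCL11, CCL16, CCL17, CCL19, CCL22, CCL23, CCL24, CCL25, CCL28, CXCL13 and CXCL17. A stricter bar was the highest olfactory receptor signal, 900 on the FOXM1-labelled array. Above it lay 5 chemokine genes, CXCL8, CXCL2, CXCL3, CCL20 and CXCL1.

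**Figure D3:**
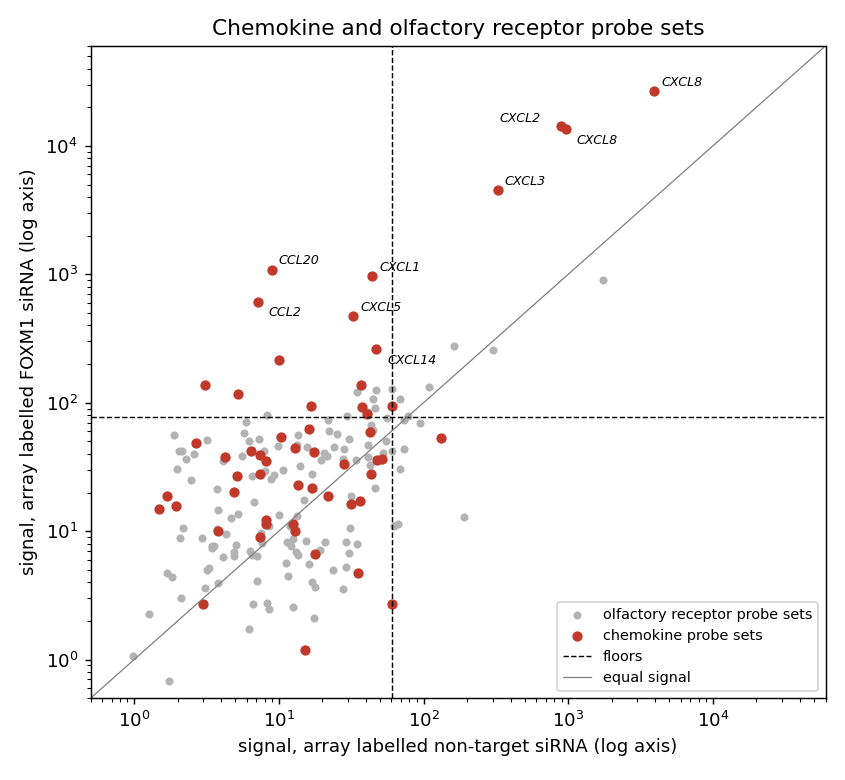
Signals of the 54 chemokine probe sets (red) and the 135 olfactory receptor probe sets (grey) on the FOXM1-labelled array (vertical, log axis) and the control-labelled array (horizontal, log axis), with dashed lines for the floors and a solid line for equal signal. Of the named genes, CXCL8, CXCL2, CXCL3, CCL20 and CXCL1 lie above the highest olfactory receptor signal on the FOXM1-labelled array, 900. CCL2, CXCL5 and CXCL14 lie below that signal but above the floor, and most other chemokine probe sets lie in the olfactory receptor cloud.

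Few genes of the chemokine receptors were detected. Of 16 measured receptors, 3 were detected, 1 of them higher by 2-fold or more and 1 lower by as much, too few to set against the shares of 16.0% higher and 15.4% lower among all detected genes. CXCR4, the signalling receptor for CXCL12, read 61.3, below the floor, on the FOXM1-labelled array and 1245 on the control-labelled array, at least 16.0-fold lower. All 3 of its probe sets were below the floor on the FOXM1-labelled array and above it on the other, with log2 differences of at most -4.00, -2.34 and -2.27. ACKR3, the atypical receptor that takes up CXCL12 without G protein signalling, read 601 on the FOXM1-labelled array and 139 on the control-labelled array, 4.31-fold higher. The other 2 probe sets of ACKR3 were below both floors, so its value rests on 1 probe set, and the median of the 3 was 0.35 on the log2 scale, the ratio of the floors.

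CCR1, which binds several inflammatory CC chemokines, read 662 on the FOXM1-labelled array and 91.9 on the control-labelled array, 7.20-fold higher. Its second probe set gave a log2 difference of at least 2.17. CCRL2, a receptor-like gene counted with the atypical receptors, was at least 2.31-fold higher, at 140 on the FOXM1-labelled array and 35.1 on the control-labelled array. It was under 2-fold, at 0.90 on the log2 scale with the hybridisation controls set equal and 0.85 with 1 floor common to both arrays. The receptors of the chemokines with the largest differences were below both floors. CXCR1 and CXCR2, the receptors for the neutrophil-attracting group, read 6.18 and 3.57 on the FOXM1-labelled array and 32.8 and 36.6 on the control-labelled array. CCR2, the receptor of CCL2, read 53.3 on the FOXM1-labelled array and 15.2 on the control-labelled array, and CCR6, that of CCL20, read 34.9 and 16.3.

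The lists of genes that act on chemokine transcription, mRNA decay and processing are given by their counts, to be read beside the 16.0% of all detected genes that were at least 2-fold higher and the 15.4% that were lower. Of 22 measured cytokine inducers and their receptors, 16 were detected, 11 passed 2-fold as higher and 0 as lower, with a median log2 difference of 2.54, bounds taken at their value, beside 0.01 over all detected genes. IL1B, a cytokine that induces many chemokines, read 31460 on the FOXM1-labelled array and 1224 on the control-labelled array, 25.7-fold higher, and its other probe set gave a log2 difference of 4.45. TNFRSF1B, a receptor for tumour necrosis factor, was at least 16.1-fold higher, the cytokine gene LIF 14.1-fold and the oncostatin M receptor gene OSMR 13.1-fold. TNF itself was below both floors at 12.4 on the FOXM1-labelled array and 31.4 on the control-labelled array. The dimmer probe sets of OSMR gave log2 differences of 1.48 and at least 1.83, against 3.72 for the brightest. Of 14 measured NF-kB genes, all detected on both arrays, 6 passed 2-fold as higher and 0 as lower, with a median of 0.78. They were the nuclear co-regulator gene NFKBIZ (9.05-fold), the inhibitor gene NFKBIA (4.66-fold), the feedback inhibitor genes TNIP1 (3.03-fold) and TNFAIP3 (2.69-fold), and the subunit genes NFKB2 (2.87-fold) and RELB (2.24-fold). NFKB2 was at 0.55 on the log2 scale by the median of its probe sets, under 2-fold. Without probe sets ending in _x_at or _s_at, NFKB2 was at 0.55 and TNIP1 at 0.50, both under 2-fold. NFKBIZ, NFKBIA and TNFAIP3 were not detected without such probe sets. Of the genes named as higher, only RELB then stayed past 2-fold, at 1.17. RELB was at 0.86 with the hybridisation controls set equal and at 0.89 with a pseudocount of 50, also under 2-fold. RELA, the main transactivating subunit, differed by 0.44 on the log2 scale, less than the probe set SD.

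Interferon signalling genes had a median of 0.41 over 10 detected genes. Of these, 3 were at least 2-fold higher, namely the interferon regulatory factor genes IRF9 (3.20-fold), IRF7 (2.68-fold) and IRF1 (2.35-fold), and the interferon gamma receptor gene IFNGR1 was 2.57-fold lower. IRF1 was at 0.93 on the log2 scale with the hybridisation controls set equal, and IRF7 at 0.62 with the doubled floor and 0.98 with a pseudocount of 50, all under 2-fold. The IFNGR1 difference was -0.17 on the log2 scale without probe sets ending in _x_at or _s_at. The interferon genes IFNG and IFNB1 were below both floors. Among 7 measured factors that control the decay of chemokine mRNA, 2 passed 2-fold as higher and 0 as lower, with a median of -0.40. ZFP36L1 and ZFP36, which bind AU-rich elements and promote decay, were 6.55-fold and 3.47-fold higher. Of 9 proteases that trim or shed chemokines, all detected, 5 passed 2-fold as higher and 0 as lower, with a median of 1.89. MMP1 was 14.2-fold, MMP2 10.7-fold, MMP3 9.68-fold, the dipeptidyl peptidase gene DPP4 9.27-fold and MMP12 at least 3.71-fold higher. The median of the 3 probe sets of MMP2 was 0.35 on the log2 scale, the ratio of the floors, and MMP12 was at 0.89 with the doubled floor. ADAM10 and ADAM17, which shed CX3CL1 and CXCL16 from the cell surface, differed by 0.73 and 0.31 on the log2 scale, under 2-fold.

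**Figure D4:**
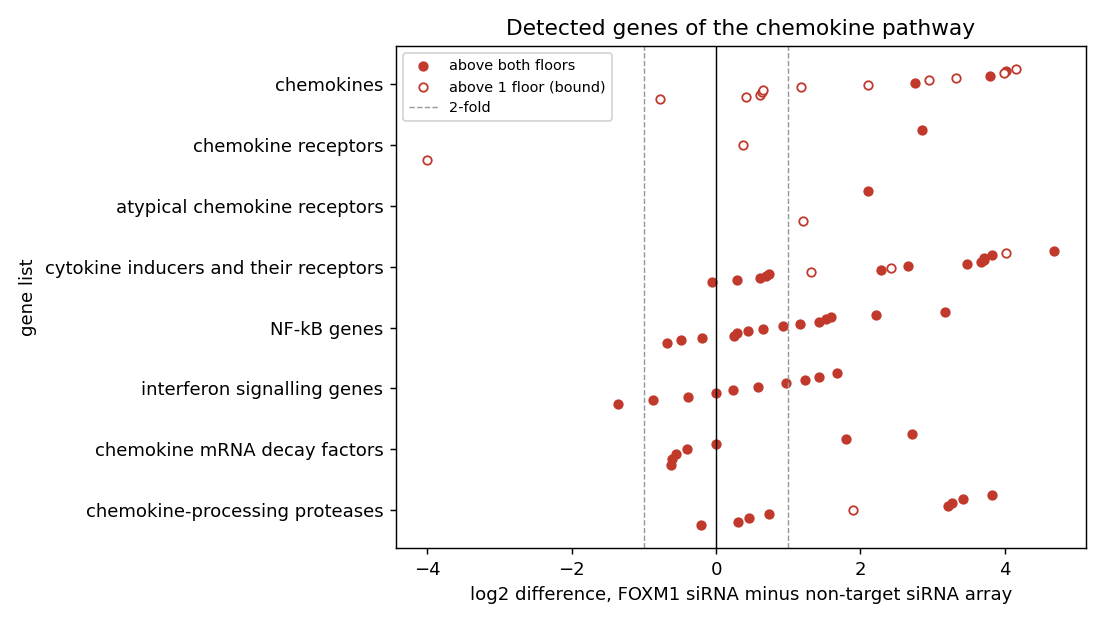
Log2 differences (FOXM1-labelled array minus control-labelled array) of the detected genes of the chemokine list and of 7 lists of its pathway, with filled points above both floors, open points above 1 floor (bounds) and dashed lines at 2-fold. CXCR4 stands alone at -4.00 among the receptors, and the cytokine inducers reach 4.68 with IL1B.

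How far the chemokine calls depended on the annotation of the probes was seen by leaving out probe sets ending in _x_at or _s_at. Of the 9 genes at least 2-fold higher, 5 were reported by such a probe set, and without them 4 genes remained past 2-fold, CXCL1, CXCL3, CCL20 and CCL26. The scaling of the arrays mattered less for these genes. Setting the 18 hybridisation controls equal gave a median log2 difference of -0.29 over all detected genes, against 0.01 on the deposited scaling. It gave 1567 genes higher and 3200 lower at 2-fold, against 2218 and 2132 on the deposited scaling. Under it 8 of the 9 chemokine genes stayed at least 2-fold higher, all except CCL26, and XCL1 became at least 2-fold lower.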

How the data were processed

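The authors deposited a linear signal intensity for each probe set, made with MAS5, per the submitters' processing notes, which record no version or settings. The 2% trimmed mean of the intensity was 500.07 on both arrays, so each array had been scaled as a whole. No detection calls were used, and 1 array per group limits the precision: there is no SD between samples and no p-value. Gene names came from the platform annotation of the probe sets (41097 with 1 symbol, 1801 with several, 11777 with none), and symbols were updated through the gene ID for 99.9% of those with 1 symbol. Signals below the floor of an array were raised to it before log2. No pseudocount was added.

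The members, gene lists, motifs and alternatives were chosen with earlier results of these arrays known. Named were all chemokine genes, FOXM1, the 9p21 genes, and from each pathway list the members past 2-fold (the 4 largest where there were more than 6); receptors of named ligands and a few genes under 2-fold were named after their values were seen. The comparison of protein sequences was not made. Calling was checked on simulated data. Python 3.11.15 with numpy 2.4.6 and pandas 2.3.3 was used, and limma 3.58.1 in R 4.3.3 for quantile and loess scaling (span 0.3).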

Additional observations from a re-analysis of the deposited data

Results flagged for a closer look

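One probe set outside the 37 genes gave a signal above the level on the control array. Probe set 205114_s_at carries the symbols CCL3L3, CCL3L1 and CCL3 and so names no single gene. It read 1129 on the FOXM1-labelled array and 224 on the control-labelled array, above the floor on both and 5.04-fold higher.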

How the results depend on the processing

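Tried were scaling by median centring, by quantiles, by loess and by the hybridisation controls, no floor, a floor 2 times as high, a common floor, the 95th percentile floor, the median of probe sets, leaving out _x_at and _s_at probe sets, a pseudocount of 50 and a 1.5-fold threshold. The count of 9 genes at least 2-fold higher ran from 8 to 12 except without _x_at and _s_at probe sets, where it was 4. The count of 14 detected genes fell to 10 with the 95th percentile floor, to 9 with the doubled floor and to 7 without those probe sets, as fewer signals or probe sets were then counted. The count of 0 lower genes became 1, XCL1, with hybridisation controls set equal, without a floor and at 1.5-fold. The median log2 difference of detected chemokine genes, 2.43, was 1.17 with the median of probe sets and 1.18 without _x_at and _s_at probe sets. With the median of probe sets CXCL2 fell to 0.35 and CXCL5 to 1.17, while CXCL8 rose to 3.28. Without _x_at and _s_at probe sets CCL2, CXCL2, CXCL5, CXCL8 and CXCL14 were lost from the genes past 2-fold. How far each of these changes moved the medians was not tested. The settings with no floor, a pseudocount or a 1.5-fold threshold do not bear on the number detected and were not run for it. Values of single chemokine genes under alternatives were counted only where the gene was still detected, so losses of detection are left out. Of the 138 values counted, 116 moved by less than the probe set SD of 0.46 and 22 moved by more. Among genes past 2-fold on the deposited values, 0 changed sign. XCL1, under 2-fold at -0.77, was at 0.23 with the doubled floor. Median centring moved the median of all detected genes to -0.15. No paired analysis was possible because each group has 1 array. Signal over background limits the 11 genes above the floor on 1 array to bounds.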

Other observations

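The other 3 probe sets with several symbols, at least one of them a chemokine, were dimmer. Probe set 214567_s_at, with the symbols XCL2 and XCL1, was above the floor on the control-labelled array only. It read 34.2 on the FOXM1-labelled array and 140 on the control-labelled array, at least 1.81-fold lower. Probe sets 205392_s_at and 210390_s_at were below both floors, at 19.3 and 11.7 on the FOXM1-labelled array and 45.5 and 8.67 on the control-labelled array.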
